A study of Mus musculus with 8 samples.

Results

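The genes described here are the tumor necrosis factor (TNF) superfamily ligands, their receptors and the TRAF adaptors, as measured by RNA-seq in mouse bone marrow progenitors with and without Ripk3. The members were taken by symbol: every Tnfsf gene (ligands), every Tnfrsf gene (receptors) and every Traf gene with a single digit (adaptors), with 2 receptor genes left out by the rule. This gave 36 of the 29955 listed genes, made up of 11 ligands, 18 receptors and 7 adaptors. Of the 36 members, 30 had a signal that averaged 1 or more across all 8 libraries (9 ligands, 14 receptors and 7 adaptors).

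There were 4 groups of 2 libraries each. WT LSK and Ripk3-/- LSK cells were lineage-negative bone marrow cells that carry Sca1 and c-Kit, a gate that holds stem cells and multipotent progenitors. WT LK and Ripk3-/- LK cells were lineage-negative cells that carry c-Kit without Sca1, a gate that holds mostly myeloid progenitors. The lineage antibodies of the study's sort were against Gr1, CD11b, CD3, B220 and Ter119. The Ripk3-/- mice lacked Ripk3 in all cells. The labels give the strain as CD57BL6/J, which the study's methods write as C57BL/6J, and the WT mice were bought from a supplier. The labels list no treatment, whereas the study describes fractionated low-dose X-irradiation of all mice and collection a month after the last dose. The age of the mice is not given for these libraries, and nothing says that the libraries of a group came from separate animals, so p-values measure the spread between libraries, which may be technical.

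TNF superfamily ligands act mostly as trimers at the cell surface or after shedding, and gather their receptors into clusters. Receptors with a death domain can start apoptosis or, through Ripk1 and Ripk3, necroptosis. Most other receptors bind TRAF proteins, which recruit ubiquitin ligases and kinases and lead to NF-kappaB and MAP kinase signaling. In bone marrow the family is best known for B cell survival signals, T cell co-stimulation, bone resorption and the response of progenitors to inflammation.

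The values are called signal here. They are read counts scaled as CPM by library factors computed separately within each population, not divided by gene length, and 100% of them were whole multiples of 1 step per library. Dividing by the step gave 9782166 to 16280811 reads per library, with 1 read worth 0.0621 to 0.104 signal. Levels of LSK and LK cells were compared as CPM from these reads with TMM factors over all 8 libraries, called common-scale CPM. Ripk3 was 143 and 147 common-scale CPM in WT LSK, 2.99 and 0.941 in Ripk3-/- LSK, 164 and 169 in WT LK, and 18.4 and 12.2 in Ripk3-/- LK libraries. Xist was 123 to 363 common-scale CPM in the WT libraries and 0 to 1.11 in the Ripk3-/- libraries, and the Y-linked gene Uty was 0 in every WT library and 19.1 to 27.6 in the Ripk3-/- libraries, so genotype and sex cannot be told apart. LSK markers were higher in LSK cells for 6 of 8 genes without overlap, and LK markers were lower in LSK cells for 7 of 8. In Ripk3-/- LSK against WT LSK libraries, 5 LSK markers were higher and 0 lower without overlap. Of the LK markers 1 was higher and 4 lower, where 44.6% of all genes did not overlap. In Ripk3-/- LK against WT LK libraries, 3 LSK markers were higher and 1 lower. Of the LK markers 2 were higher and 5 lower, where 40.0% of all genes did not overlap. The part of these markers in the genotype results was not tested. In common-scale CPM, mature neutrophil markers summed to 581 to 630 in WT LSK and 1920 to 2252 in Ripk3-/- LSK libraries, and to 832 to 857 in WT LK and 1819 to 1825 in Ripk3-/- LK libraries. In bulk samples, fewer cells of a type and less RNA per cell cannot be told apart.

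The DNA upstream of 3 receptor genes is shown first. Tnfrsf13c and Tnfrsf18 had the largest log2 differences of the family between LSK and LK cells, and Tnfrsf12a was the member that limma called in the genotype contrast averaged over both populations, which was added after the values were seen. The sequences are from RefSeq on GRCm38.p6, start 250 bases before the RefSeq start site and stop before the first annotated exon base. Tnfrsf12a lies at chr17:23677469-23677699 on the minus strand, Tnfrsf13c at chr15:82224381-82224630 on the minus strand, and Tnfrsf18 at chr4:156026072-156026163 on the plus strand.

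Tnfrsf12a: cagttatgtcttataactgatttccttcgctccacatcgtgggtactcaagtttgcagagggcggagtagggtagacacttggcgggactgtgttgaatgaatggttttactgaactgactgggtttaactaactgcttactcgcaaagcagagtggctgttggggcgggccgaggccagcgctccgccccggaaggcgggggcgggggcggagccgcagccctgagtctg
Tnfrsf13c: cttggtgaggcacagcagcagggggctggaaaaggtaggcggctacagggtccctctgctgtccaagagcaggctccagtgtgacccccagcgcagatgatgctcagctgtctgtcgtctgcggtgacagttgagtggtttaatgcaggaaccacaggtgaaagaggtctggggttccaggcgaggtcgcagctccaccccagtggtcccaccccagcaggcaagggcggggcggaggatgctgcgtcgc
Tnfrsf18: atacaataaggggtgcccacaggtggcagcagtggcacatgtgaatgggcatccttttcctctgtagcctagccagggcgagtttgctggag

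The Tnfrsf12a stretch holds 14 CpG in 231 bases with 57.6% GC, and the Tnfrsf13c stretch 10 CpG in 250 bases with 63.2% GC. The shorter Tnfrsf18 stretch holds 1 CpG in 92 bases with 55.4% GC. Over all 32851 RefSeq promoter windows, the median was 6 CpG in the 250 bases before the start. Neither the kappaB consensus, the motif bound by NF-kappaB dimers, nor the AP-1 motif TGANTCA was found in the 300-base windows of these 3 genes, which run to 50 bases past the start site.

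Both motifs are the textbook DNA targets of signaling through this family, and 34 windows of 30 members were searched for them on both strands. The kappaB consensus was found in the windows of 3 members (Tnfrsf8, Tnfrsf9 and Traf3), and 4.505% of all windows hold it. TGANTCA, which reads the same on either strand, was found in 6 windows of 5 members (Tnfrsf8, Tnfrsf9, Tnfsf13, Tnfsf13b and Tnfsf14), and 7.808% of all windows hold it. A match is a description of the letters and not a binding site. The matches that lie outside annotated exons are shown with the matching letters in capitals, at chr4:145315267-145315346 on the minus strand for Tnfrsf8, chr17:57194312-57194391 on the minus strand for Tnfsf14 and chr12:111166290-111166369 on the plus strand for Traf3.

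Tnfrsf8: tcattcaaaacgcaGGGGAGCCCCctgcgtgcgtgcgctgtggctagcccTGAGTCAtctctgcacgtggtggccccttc
Tnfsf14: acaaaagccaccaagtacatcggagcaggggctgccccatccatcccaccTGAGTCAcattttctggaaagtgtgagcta
Traf3: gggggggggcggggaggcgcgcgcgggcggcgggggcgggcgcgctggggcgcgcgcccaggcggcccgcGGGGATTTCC

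In Tnfrsf8, which encodes CD30, the first capitals are a kappaB match on the opposite strand and the second an AP-1 match. Tnfsf14, which encodes the ligand LIGHT, holds an AP-1 match only. In Traf3, an adaptor that restrains the non-canonical NF-kappaB pathway, the kappaB match ends at the base before the start site.

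All 7 adaptors were detected in both populations, whereas detection of ligands and receptors was uneven. In LSK libraries 32 members had a mean signal of at least 1 (10 ligands, 15 receptors and 7 adaptors), in LK libraries 27 had (7 ligands, 13 receptors and 7 adaptors), and 27 had in both. Tnfsf13b, which encodes the B cell survival factor BAFF, and Tnfrsf23, a decoy receptor for TRAIL, were listed at 0 in every library. A count of 0 allows up to 3 reads, which is 0.186 to 0.311 signal here, a limit that takes in counting error alone. The transcript of Tnfrsf23 matches that of Tnfrsf22 at 91.2% identity over 2172 bases. Shorter stretches of Tnfrsf22 match transcripts of other genes, among them Tmem72 at 97.8% identity over 766 bases. How shared reads were counted is not given in the sources used here, so the values of Tnfrsf22 and Tnfrsf23 are uncertain. Tnfrsf11b, the soluble decoy for the ligand RANKL, was 0 and 0.932 in WT LSK and 0.643 and 0 in Ripk3-/- LSK libraries, and 0 in every LK library. Just below the threshold lay Tnfrsf4, Tnfrsf17 and Tnfsf12, with mean signals of 0.775, 0.852 and 0.876, and just above it Tnfrsf25, Tnfsf18 and Tnfrsf19, with 1.12, 1.37 and 1.41.

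**Figure D1:**
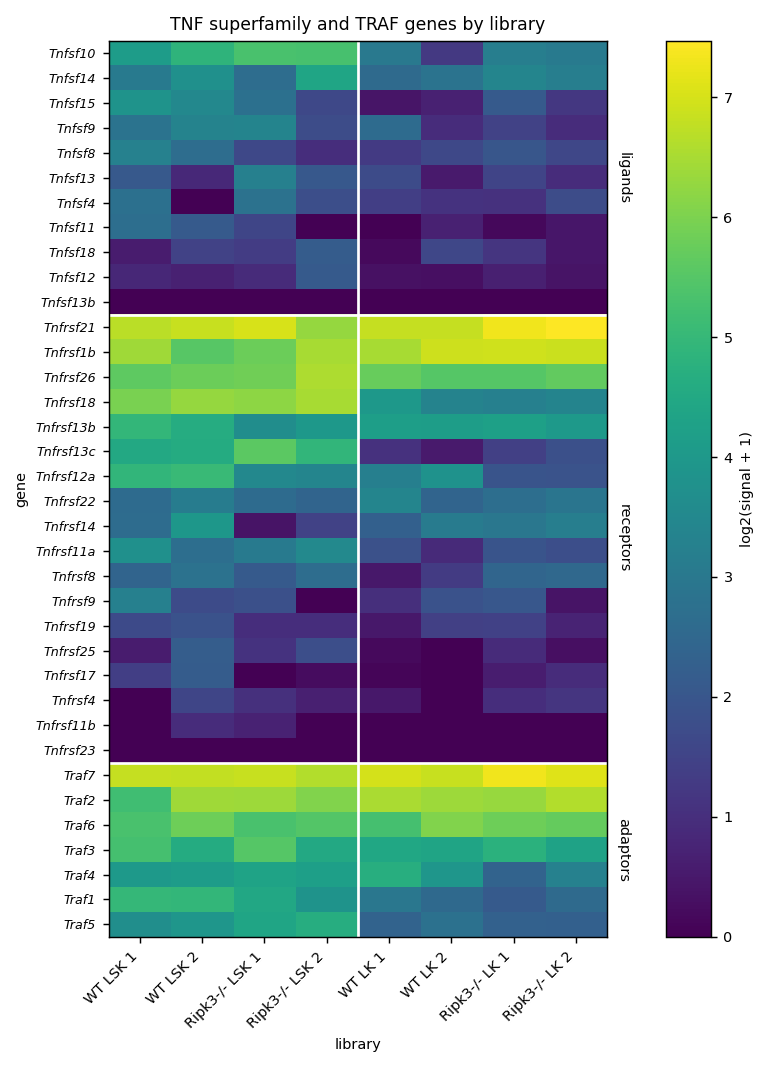
Heat map of log2(signal + 1) for the 36 members (rows, grouped by role and ordered by mean signal) in the 8 libraries (columns). The adaptors and the receptors Tnfrsf21, Tnfrsf1b and Tnfrsf26 are bright in every library, most ligands are dark, and Tnfsf13b and Tnfrsf23 are at 0 throughout. LSK and LK columns were scaled separately.

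Levels per kilobase of exon were averaged over the 2 WT and 2 Ripk3-/- libraries of each population (n = 4). Their SD therefore takes in any difference between the genotypes. By this measure receptors and adaptors held the highest levels of the family. In LSK cells the receptor Tnfrsf18, known as GITR, led at 43.3 ± 6.44 common-scale CPM per kilobase (SD, n = 4), followed by the death receptor Tnfrsf21 at 22.6 ± 4.86 (SD, n = 4), Tnfrsf26 at 17.2 ± 5.41 (SD, n = 4) and Traf7 at 16.1 ± 1.18 (SD, n = 4). Tnfrsf26 lay within the spread of Tnfrsf21 and of Traf7, whereas Tnfrsf21 and Traf7 were further apart than their summed SDs. In LK cells Tnfrsf21 led at 38.7 ± 9.38 (SD, n = 4), followed by Tnfrsf1b at 33.3 ± 4.50 (SD, n = 4), Traf7 at 26.1 ± 3.63 (SD, n = 4) and Traf2 at 19.4 ± 1.88 (SD, n = 4), and Tnfrsf18 was at 7.82 ± 2.22 (SD, n = 4). The leading pair in LK cells lay within their spread of each other. Tnfrsf21 was 127 and 126 common-scale CPM in WT LK and 180 and 202 in Ripk3-/- LK libraries. Most of its spread thus lay between the genotypes, and the pair was not ranked within a genotype. The ligand with the highest level was Tnfsf14 in both populations, at 5.36 ± 3.08 in LSK and 4.47 ± 1.23 in LK cells (SD, n = 4), and in LSK cells it was closely followed by Tnfsf10, which encodes TRAIL, at 5.10 ± 1.77 (SD, n = 4). Lengths are from GENCODE M21, and the reads of Tnfsf12 and Tnfsf13 (both share exons with a readthrough transcript) and of Traf7 (it shares 267 exon bases with Rab26 on the same strand and 110 with Caskin1 on the other) may in part belong to other genes. The same may hold for Tnfrsf18, Traf5, Tnfsf9 and Tnfrsf26, which share 414, 205, 192 and 107 exon bases with a gene on the other strand.

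All 27 members detected in LK cells were also detected in LSK cells, and the populations differed in the levels of some of them. Of the 30 members tested, 13 differed between the populations at an adjusted p under 0.05 (limma on log2(common-scale CPM + 1), Benjamini-Hochberg adjustment over all genes tested), which is 43.3% of them where 34.0% of all 15757 genes tested did, and 16 had an unadjusted p under 0.05, where 43.7% of all genes did. The share of members lay near that of all genes, so the count is no feature of the family, and the values below are those of single members. The edgeR test called 12 members (29.0% of all genes) and DESeq2 13 (33.6%). Higher in LSK cells were 8 members, against 13.7% of all genes: the receptors Tnfrsf13c, Tnfrsf18, Tnfrsf11a and Tnfrsf12a, the ligands Tnfsf10 and Tnfsf15, and the adaptors Traf1 and Traf5. Lower in LSK cells were 5 members, against 20.2% of all genes: the receptors Tnfrsf1b and Tnfrsf21 and the adaptors Traf2, Traf6 and Traf7. The median log2 difference was 0.28 over the members and 0.07 over all genes. The LSK and LK libraries did not overlap for 10 of the 30 members (6 higher and 4 lower), where 28.0% of all genes did not (11.3% higher and 16.7% lower). Within the WT libraries alone 8 members passed (23.9% of all genes), within the Ripk3-/- libraries alone 9 (19.3%), and after quantile normalization 7 (23.4%). Whether a population is scaled with the other matters for the lower set: on the deposited scaling, which moved the median of all genes to 0.39, 10 members were higher (24.5% of all genes) and Tnfrsf1b alone was lower at the same threshold (33.7% of all genes passed in either direction), while the sign of each of the 13 differences stayed the same.

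Among the receptors, the clearest difference was in Tnfrsf18, a co-stimulatory receptor best known on T cells (ENSMUSG00000041954.18, chr4:156026164-156028895, plus strand, GRCm38). Its common-scale CPM was 54.2 and 68.5 in WT LSK, 63.7 and 77.8 in Ripk3-/- LSK, 17.0 and 10.2 in WT LK, and 9.80 and 10.7 in Ripk3-/- LK libraries. Every LSK library lay above every LK library, with a log2 difference of 2.40 (SE 0.24, adjusted p = 9.08e-08 from limma).

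Tnfrsf13c, the receptor for BAFF on B cells (ENSMUSG00000068105.11, chr15:82221743-82224369, minus strand), showed the largest log2 difference of the family, 3.41 (SE 0.38, adjusted p = 4.01e-07 from limma). Its common-scale CPM was 19.1 and 20.3 in WT LSK, 41.8 and 25.5 in Ripk3-/- LSK, 1.24 and 0.517 in WT LK, and 1.87 and 2.92 in Ripk3-/- LK libraries. The summed level of B cell markers overlapped between the populations: it was 60.4 to 86.2 common-scale CPM in LSK and 51.9 to 77.3 in LK libraries, most of it Cd79b, 1 of 5 was higher in LSK without overlap, and Pax5 was at most 2.46 in any library. T cell markers, listed because of Tnfrsf18, summed to 74.4 to 99.5 in LSK and 12.6 to 19.6 in LK libraries; most of this was Lck, Cd3e was at most 3.40, and 2 of 5 were higher in LSK without overlap. Their part in the Tnfrsf18 difference was not tested.

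Of the other B cell receptors for this ligand group, Tnfrsf13b, which encodes TACI, was 10.3 to 26.4 common-scale CPM in LSK and 17.8 to 20.3 in LK libraries, a log2 difference of -0.20 (95% interval -0.78 to 0.37, adjusted p = 0.592 from limma). Tnfrsf13b thus showed no detectable difference where Tnfrsf13c showed the largest.

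Smaller differences were seen in Tnfrsf11a, which encodes the RANKL receptor RANK, and in Tnfrsf12a, which encodes Fn14, the receptor for TWEAK. Tnfrsf11a was 4.82 to 10.9 common-scale CPM in LSK and 0.947 to 3.24 in LK libraries, with no overlap and a log2 difference of 1.34 (SE 0.44, adjusted p = 0.0215 from limma). Tnfrsf12a had a log2 difference of 1.16 (SE 0.34, adjusted p = 0.0114 from limma), but its populations overlapped, with 8.97 and 8.30 in Ripk3-/- LSK and 9.45 and 14.7 in WT LK libraries. Within each genotype they did not overlap, with 25.5 and 28.5 in WT LSK and 3.24 and 3.13 in Ripk3-/- LK libraries. Limma's adjusted p after quantile normalization was 0.218 for Tnfrsf11a and 0.0541 for Tnfrsf12a. Within WT alone it was 0.0676 and 0.0928, and within Ripk3-/- alone 0.242 and 0.0898. Without WT LK replicate 1 the adjusted p of Tnfrsf12a was 0.0592, and that of Tnfrsf11a was 0.067 to 0.0941 without WT LSK replicate 1, Ripk3-/- LSK replicate 2, WT LK replicate 2 or Ripk3-/- LK replicate 2 (limma).

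Tnfrsf1b, the second TNF receptor, which lacks a death domain and binds TRAFs (ENSMUSG00000028599.10, chr4:145213463-145246870, minus strand), had the largest negative difference among the 13 members that limma called. It was 73.2 and 39.9 common-scale CPM in WT LSK, 48.2 and 77.4 in Ripk3-/- LSK, 101 and 135 in WT LK, and 138 and 134 in Ripk3-/- LK libraries, a log2 difference of -1.12 (SE 0.20, adjusted p = 0.000136 from limma). Every LSK library lay below every LK library. Tnfrsf14, not called at -1.05 (adjusted p = 0.0724 from limma), was more negative than Tnfrsf1b by other methods. The log2 differences of Tnfrsf14 and Tnfrsf1b were -1.36 and -1.04 in edgeR and -1.35 and -1.02 in DESeq2. After quantile normalization they were -1.45 (adjusted p = 0.0278 from limma) and -0.78. The log2 difference of Tnfrsf14 was 0.29 within WT (adjusted p = 0.764 from limma) and -2.40 within Ripk3-/- libraries (adjusted p = 0.00886 from limma). Its genotype effects did not pass the test for a difference between the populations (adjusted p = 0.282 from limma). Tnfrsf21 was 67.2 to 115 common-scale CPM in LSK and 126 to 202 in LK libraries, also without overlap, a log2 difference of -0.76 (SE 0.17, adjusted p = 0.00104 from limma). It was -0.41 within WT (adjusted p = 0.203 from limma) and -1.11 within Ripk3-/- libraries (adjusted p = 0.00159 from limma). The difference of the genotype effects did not pass (adjusted p = 0.483 from limma). The call was lost after quantile normalization and on the deposited scaling (limma adjusted p = 0.0877 and 0.0687). Tnfrsf26, whose level per kilobase in LSK cells lay within the spread of Tnfrsf1b and of Tnfrsf21, showed a log2 difference of -0.01 (95% interval -0.42 to 0.40).

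Among the ligands, Tnfsf10 stood out. TRAIL induces apoptosis through its death receptors. Tnfsf10 was 14.6 and 24.5 common-scale CPM in WT LSK, 34.8 and 33.5 in Ripk3-/- LSK, 8.05 and 1.55 in WT LK, and 9.22 and 8.54 in Ripk3-/- LK libraries, a log2 difference of 1.94 (SE 0.37, adjusted p = 0.000312 from limma) with no overlap. Tnfsf15, which encodes TL1A, the ligand of the death-domain receptor Tnfrsf25, had a log2 difference of 1.57 (SE 0.45, adjusted p = 0.00995 from limma). Within WT the log2 difference between LSK and LK cells was 2.88 and within Ripk3-/- it was 0.27 (adjusted p = 0.837 from limma), a contrast between genotypes that did not pass the test given at the end of the genotype results. Without Ripk3-/- LK replicate 2 the adjusted p over both genotypes was 0.0625 (limma). All 9 ligands tested had a log2 difference above 0, from 0.12 to 1.94, and 2 of the 9 passed the test, where 34.0% of all genes did. However, Tnfsf11 and Tnfsf18 averaged 0.315 and 0.950 common-scale CPM in LK cells and 2.38 and 1.60 in LSK cells. They passed the filter on low values through the LSK libraries, so nothing is drawn from the count of signs. Quantile normalization put Tnfsf4, Tnfsf8, Tnfsf14 and Tnfsf18 between -0.29 and -0.12.

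Among the adaptors, 5 of 7 differed, where 34.0% of all genes did, and the values below are those of single genes. Traf1, an adaptor induced by NF-kappaB, was 26.5 and 26.0 common-scale CPM in WT LSK, 19.1 and 11.6 in Ripk3-/- LSK, 7.74 and 5.51 in WT LK, and 3.82 and 5.76 in Ripk3-/- LK libraries, a log2 difference of 1.67 (SE 0.34, adjusted p = 0.000596 from limma). Traf5, which acts beside Traf2 downstream of several co-stimulatory receptors, was 10.5 to 21.0 in LSK and 4.41 to 6.72 in LK libraries, a log2 difference of 1.40 (SE 0.35, adjusted p = 0.00373 from limma). Neither overlapped between the populations. In the other direction, Traf7 was 84.8 to 101 in LSK and 129 to 180 in LK libraries (log2 difference -0.68, SE 0.15, adjusted p = 0.0010 from limma). Traf2, the adaptor of both TNF receptors, was 30.9 to 74.2 in LSK and 89.1 to 110 in LK libraries (log2 difference -0.81, SE 0.22, adjusted p = 0.00541 from limma), and neither gene overlapped. Traf6, which also serves Toll-like and interleukin-1 receptors, overlapped, at 34.3 to 48.9 in LSK and 43.2 to 74.4 in LK libraries (log2 difference -0.60, SE 0.21, adjusted p = 0.0325 from limma). Its call was lost without WT LSK replicate 1, Ripk3-/- LSK replicate 1, WT LK replicate 2 or either Ripk3-/- LK library, with adjusted p of 0.0641 to 0.194, and with edgeR (adjusted p = 0.0573). Traf3 and Traf4 had log2 differences of 0.14 and 0.26 with adjusted p of 0.725 and 0.561 from limma.

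**Figure D2:**
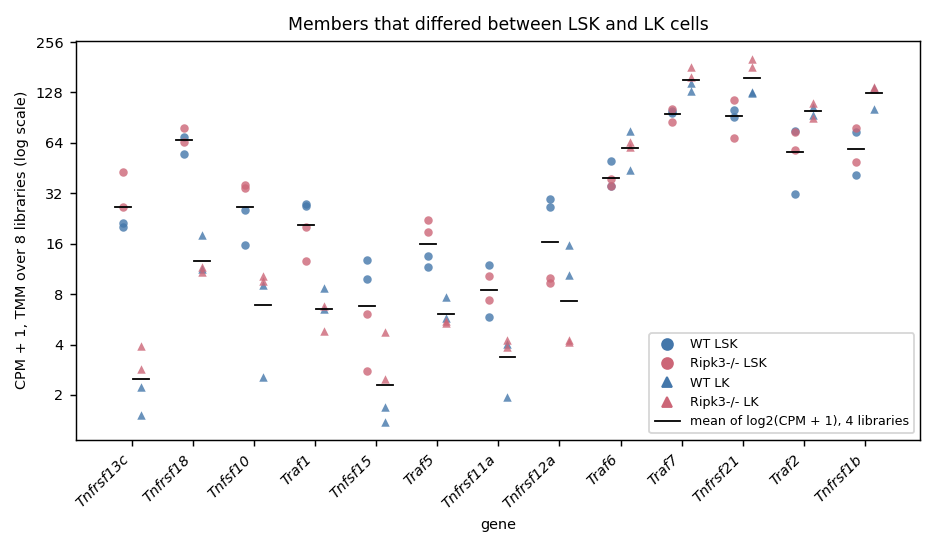
Common-scale CPM + 1 on a log axis for the 13 members that differed between LSK (circles) and LK (triangles) cells, ordered by log2 difference; each point is 1 library (blue, WT; red, Ripk3-/-) and each line the mean of log2(CPM + 1) over 4 libraries. Tnfrsf13c and Tnfrsf18 at the left are higher in every LSK library, Tnfrsf1b at the right is lower in every LSK library, and Tnfrsf12a, Tnfsf15 and Traf6 overlap.

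Superfamily genes that carry other names are given for comparison. None of the 15 is a member, and 4 of the 10 tested differed between the populations, near the 34.0% of all genes, each of the 4 higher in LSK cells: Ltb, a subunit of the lymphotoxin heterotrimer (log2 difference 4.83), Edar, the ectodysplasin receptor (2.42), Cd27, a co-stimulatory receptor (1.66), and Tnf itself (0.83). Of 30 signal transducers that act next to the receptors, all were tested and 8 differed, which is 26.7% beside the same 34.0%. Relb and Birc3 were higher in LSK cells (log2 differences 1.74 and 0.53), and Chuk, Ripk1, Tank, Tnfaip3, Traip and Rbck1 were lower (-1.17 to -0.57). Relb belongs to the non-canonical NF-kappaB pathway, and Ripk1 is the kinase upstream of Ripk3.

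Loss of Ripk3 was compared within each population. In LK cells 0 of 27 members passed the adjusted threshold in limma, where 0.473% of all 13949 genes did, and 4 members had an unadjusted p under 0.05, where 6.56% of all genes did. The edgeR quasi-likelihood test on the reads also called 0 members (0.390% of all genes), and DESeq2 called Tnfrsf12a (1.18% of all genes). In LSK cells 0 of 32 members passed in limma, where 2.16% of all 16817 genes did, and 7 had an unadjusted p under 0.05, where 17.9% of all genes did. The edgeR test called 0 members (1.40% of all genes) and DESeq2 called Tnfrsf12a and Tnfrsf14 (3.77% of all genes). The median log2 fold change of the members was 0.12 in LK and -0.01 in LSK cells, beside 0.01 and -0.01 over all genes.

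The genotypes did not overlap for 10 of 27 members in LK cells (7 higher and 3 lower in Ripk3-/-), where 40.0% of all genes did not (20.1% higher and 19.9% lower), and for 16 of 32 in LSK cells (6 higher and 10 lower), where 44.6% of all genes did not (21.4% higher and 23.2% lower). With 2 libraries on each side, an exact permutation test reaches p = 0.333 at best, so single genes rest on limma's shared spread. By role, none of the 7, 13 and 7 tested in LK cells and none of the 10, 15 and 7 tested in LSK cells passed limma's test. The superfamily genes with other names gave 0 of 9 in LK and 0 of 11 in LSK cells, with 1 at an unadjusted p under 0.05 in each. The signal transducers gave 0 of 30 in either population, with 2 and 4 at an unadjusted p under 0.05. For the difference between the populations the lists gave 0 of 10 and 0 of 30, with 1 and 2 at an unadjusted p under 0.05. In edgeR and DESeq2 these 2 lists were not counted.

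**Figure D3:**
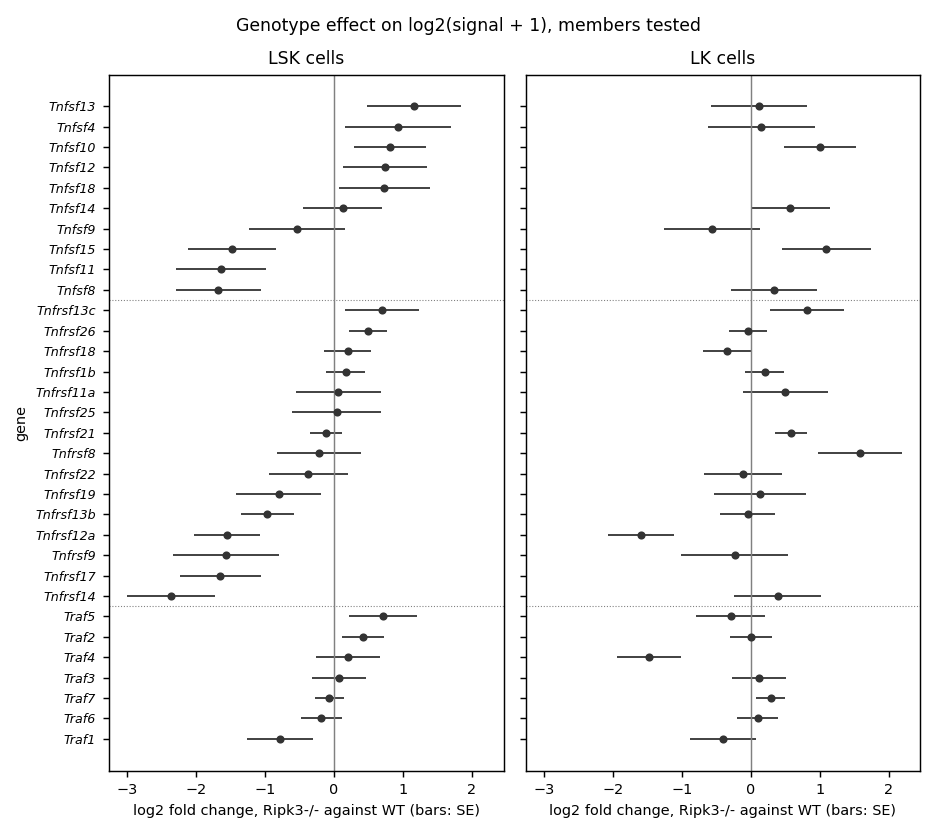
Log2 fold change on the log2(signal + 1) scale, Ripk3-/- against WT, in LSK (left) and LK (right) cells for each member tested; points are limma estimates and bars their SE, with ligands at the top, then receptors and adaptors below the dotted lines. Tnfrsf12a lies near -1.6 in both panels, whereas Tnfrsf14 and Tnfsf15 are below 0 in LSK and above 0 in LK cells.

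The 1 of 27 members whose Ripk3-/- libraries lay below the WT libraries without overlap in both populations was Tnfrsf12a (ENSMUSG00000023905.15, chr17:23675445-23677468, minus strand), a small receptor induced by growth factors and injury. Over all genes, 11.2% did not overlap in the same direction in both populations, lower or higher. The signal of Tnfrsf12a was 29.0 and 32.4 in WT LSK and 10.1 and 9.49 in Ripk3-/- LSK libraries, and 8.29 and 13.1 in WT LK and 2.85 and 2.73 in Ripk3-/- LK libraries. Limma gave -1.55 ± 0.48 (SE) on the log2 scale in LSK cells, with an adjusted p of 0.0961, and -1.59 ± 0.48 in LK cells, with an adjusted p of 0.255. After quantile normalization it passed in LSK cells (log2 fold change -1.91, adjusted p = 0.0384 from limma), and DESeq2 called it in both populations (adjusted p = 0.0215 in LSK and 0.0104 in LK cells). The difference of these effects was 0.04 (95% interval -1.37 to 1.45).

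Averaged over both populations, a contrast added after the values were seen, the log2 fold change of Tnfrsf12a was -1.57 (SE 0.34, adjusted p = 0.0164 from limma; adjusted p = 0.015 from edgeR), and it was the 1 member of 30 called, where 1.64% of all genes were in limma and 1.33% in edgeR. The call was lost when any of 5 libraries was left out: WT LSK replicate 2, Ripk3-/- LSK replicate 2, WT LK replicate 2 and either Ripk3-/- LK library, with adjusted p of 0.0526 to 0.0923 and log2 fold changes of -1.58 to -1.42. Its ligand Tnfsf12 was low, at 0.794 and 0.622 in WT LSK, 0.884 and 3.33 in Ripk3-/- LSK, and 0.229 to 0.571 signal in LK libraries. The neutrophil markers given above moved with genotype in the same libraries, although the sort used antibodies against Gr1 and CD11b, which mark mature neutrophils, and their part in the Tnfrsf12a difference was not tested.

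Of the members tested in LSK cells, Tnfrsf14 had the largest fold change on the log2(signal + 1) scale, which understates low genes. It encodes HVEM, which binds LIGHT and the inhibitory receptor BTLA. Its signal was 5.26 and 14.5 in WT LSK, 0.322 and 1.76 in Ripk3-/- LSK, 3.87 and 7.56 in WT LK, and 6.85 and 8.13 in Ripk3-/- LK libraries. In LSK cells the genotypes did not overlap and limma's log2 fold change was -2.37 ± 0.64 (SE; adjusted p = 0.0559). Among genes with a mean of at least 5 (2.91% of all genes passed), limma's adjusted p was 0.0479. Tnfrsf14 passed that filter through its WT LSK libraries, with a mean of 9.88 against 1.04 in Ripk3-/- LSK libraries. Nothing is drawn from that value. The adjusted p was 0.00943 with DESeq2, but 0.102 with edgeR and 0.111 with limma after quantile normalization (2.40%). In LK cells the log2 fold change was 0.39 with overlapping genotypes, and its sign rests on 1 library, since it was -0.015 without WT LK replicate 1.

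Tnfrsf17, the plasma cell receptor BCMA, rested on few reads: 16 and 34 in WT LSK and 0 and 2 in Ripk3-/- LSK libraries. It had 1 and 0 reads in WT LK and 8 and 15 in Ripk3-/- LK libraries, so the WT libraries were the higher ones in LSK and the lower ones in LK cells. Its mean of 0.852 signal over all libraries is under the threshold, and it entered the LSK test only through the WT libraries, where it was high, so nothing is drawn from its fold change. Tnfrsf13b was lower in both Ripk3-/- LSK libraries, at 11.7 and 15.0 signal against 30.1 and 23.7, with limma's log2 fold change of -0.96 ± 0.39 (SE; adjusted p = 0.195), and lay between 15.5 and 17.9 in all LK libraries. Among B cell markers, 2 of 5 were lower without overlap in Ripk3-/- LSK libraries and 0 were higher, and their part in these values was not tested.

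In LK cells Tnfrsf8 had a signal of 0.408 and 1.45 with Ripk3 and of 4.38 and 4.78 without. Among the members tested in LK cells this was the largest positive log2 fold change in limma, 1.59 ± 0.62 (SE; adjusted p = 0.537). With means of 0.929 in WT LK and 4.58 in Ripk3-/- LK libraries, Tnfrsf8 passed the filter on low values through its Ripk3-/- libraries. Nothing is therefore drawn from its rank. Tnfrsf21 was 111 and 111 in WT LK and 159 and 176 in Ripk3-/- LK libraries (limma: 0.58 ± 0.23 SE on the log2 scale, adjusted p = 0.556). Neither passed, although neither overlapped.

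Among the ligands, values moved apart in LSK cells without passing the test. Tnfsf8, the CD30 ligand, was 8.74 and 5.39 in WT LSK and 2.09 and 0.978 in Ripk3-/- LSK libraries (limma: -1.67 ± 0.62 SE on the log2 scale, adjusted p = 0.159). Tnfsf11, which encodes RANKL, the driver of osteoclast formation, was 5.56 and 3.31 against 1.93 and 0 (limma: -1.64 ± 0.65 SE on the log2 scale, adjusted p = 0.188), and it too passed the filter on low values through its WT LSK libraries. Tnfsf10 was 16.7 and 27.9 in WT LSK against 39.2 and 38.3 in Ripk3-/- LSK libraries, and 7.07 and 1.37 against 8.12 and 7.45 in LK libraries. Its log2 fold changes were 0.82 and 1.0 with adjusted p of 0.429 and 0.806 from limma. Tnfsf10, Tnfrsf12a and Tnfrsf13c were the 3 of 27 members whose genotypes did not overlap in the same direction in both populations, where 11.2% of all genes did so. In LK cells Tnfrsf13c passed the filter on low values through its Ripk3-/- libraries, with a mean of 2.10 against 0.772 in WT LK libraries. Nothing is drawn from its direction there.

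Among the adaptors, Traf4 was 24.7 and 14.3 in WT LK and 4.19 and 8.82 in Ripk3-/- LK libraries, which limma put at -1.47 ± 0.46 (SE; adjusted p = 0.293) on the log2 scale. In LSK cells its signal was 15.2 and 16.5 with Ripk3 and 19.3 and 17.6 without, which limma put at 0.21 ± 0.46 (SE). Traf1 was 30.2 and 29.6 in WT LSK and 21.5 and 13.3 in Ripk3-/- LSK libraries (limma: -0.78 ± 0.48 SE on the log2 scale, adjusted p = 0.399), and Traf5 was 12.0 and 14.2 against 20.1 and 24.1 (limma: 0.71 ± 0.49 SE on the log2 scale, adjusted p = 0.472). The log2 fold changes of Traf2, Traf3, Traf6 and Traf7 lay between -0.18 and 0.42 in LSK and between 0.00 and 0.29 in LK cells.

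Whether the genotype effect differed between the populations was tested as a difference of the effects. By limma 0 of 30 members passed, where 0.358% of all 15901 genes did, and 5 had an unadjusted p under 0.05, where 10.1% of all genes did. The edgeR test and DESeq2 also called 0 members, where edgeR called 0.349% and DESeq2 0.984% of all genes. The largest differences of effect were in Tnfrsf14 (-2.76, SE 0.90, adjusted p = 0.282 from limma) and Tnfsf15 (-2.58, SE 0.90, adjusted p = 0.315 from limma). The signal of Tnfsf15 was 13.4 and 10.2 in WT LSK, 5.79 and 2.05 in Ripk3-/- LSK, 0.340 and 0.611 in WT LK, and 3.30 and 1.30 in Ripk3-/- LK libraries. Tnfsf15, Traf4 and Traf5 were the 3 of 27 members whose genotypes did not overlap in opposite directions in the populations, where 7.19% of all genes did so. In LK cells Tnfsf15 passed the filter on low values through its Ripk3-/- libraries, with a mean of 2.30 against 0.475 in WT LK libraries. Nothing is drawn from its direction there.

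**Figure D4:**
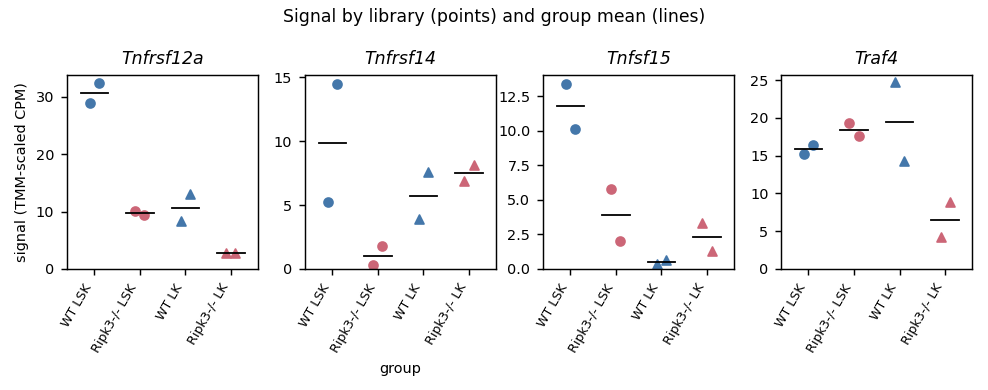
Signal (linear axes from 0, 1 panel a gene) of Tnfrsf12a, Tnfrsf14, Tnfsf15 and Traf4 in each library (points; blue, WT; red, Ripk3-/-; circles, LSK; triangles, LK) with the mean of 2 libraries as a line. The Ripk3-/- points lie below the WT points in both populations for Tnfrsf12a, in LSK cells for Tnfrsf14 and Tnfsf15, and in LK cells for Traf4; 0 of the 4 passed limma's test within a population.

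Some members are genomic neighbors, and their levels are given as a description with no test. Chromosome 4 holds 9 of the 36 members. Tnfrsf4 and Tnfrsf18 lie 9552 bases apart there (GENCODE M21, GRCm38). Tnfrsf4, which encodes OX40, was at most 1.97 signal in any library, while Tnfrsf18 was 8.62 to 88.9. Tnfrsf1b and Tnfrsf8 lie 20267 bases apart, and Tnfrsf8 was at most 6.01 signal where Tnfrsf1b was at least 45.5. Tnfsf15 and Tnfsf8, which lie 86195 bases apart with mean signals of 4.62 and 3.21, were both lower by value in Ripk3-/- LSK libraries without overlap. On chromosome 7 Tnfrsf26, Tnfrsf22 and Tnfrsf23 lie in a row, with signals of 44.0 to 92.7, 4.27 to 9.65 and 0. The other neighboring pairs were low on both sides, with mean signals over all libraries of 2.57 for Tnfsf4 and 1.38 for Tnfsf18, of 0.876 for Tnfsf12 and 2.66 for Tnfsf13, and of 4.48 for Tnfsf9 and 9.26 for Tnfsf14. Tnfrsf19 and Tnfsf11 share chromosome 14 with Ripk3, and their adjusted p in LSK cells was 0.524 and 0.188 from limma.

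Most of the remaining members tested were low, and several varied between replicates. Tnfsf4, the OX40 ligand, was 5.76 and 0 in WT LSK libraries. Tnfrsf9, a T cell co-stimulatory receptor, was 8.54 and 2.28 in WT LSK and 2.57 and 0 in Ripk3-/- LSK libraries, and its ligand Tnfsf9 was 0.916 to 9.40 over all libraries. Tnfsf13, which encodes APRIL, was 0.458 to 8.52, Tnfsf14 5.03 to 19.9, Tnfsf18 0.136 to 3.52, Tnfrsf19 0.408 to 2.69, Tnfrsf22 4.27 to 9.65 and Tnfrsf25 0 to 3.63 signal over the 8 libraries. For these members differences were not detectable at this depth and number of libraries, with adjusted p of 0.285 or more from limma in either genotype comparison.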

How the data were processed

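RNA-seq of 8 libraries was used as deposited, and no reads were aligned. The submitters' processing notes name TopHat and mm9, and the counting tool, annotation and versions are not given in the sources used here. The authors deposited signal values headed FPKM, of which 100% are whole multiples, within 0.01, of 1 step per library. They are therefore reads scaled as CPM with TMM factors computed within each population, and are not divided by length. The test was designed for this unit, known from earlier processing of these files.

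limma 3.58.1 (R 4.3.3; lmFit, eBayes with trend, two-sided, 4 group means, 8 libraries) was fitted on log2(signal + 1), a scale that understates changes of low genes, for genes whose signal averaged 1 or more in the libraries compared. LSK and LK cells were compared on log2(CPM + 1) from the recovered reads with TMM factors over all libraries. P-values were adjusted by Benjamini-Hochberg over all genes tested. Alternatives were edgeR 4.0.16 (quasi-likelihood) and DESeq2 1.42.0 on recovered reads, other pseudocounts, filters and scalings, a replicate block and leaving out each library. On the recovered reads edgeR called 56 genes in LK and 229 in LSK cells. Scripts were tested on simulated data.

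Members, gene lists, markers and tests were chosen with earlier results of these data known. Values in every library are given for members with an adjusted p under 0.05 in a contrast, for the 2 members of each role with the largest fold change per genotype comparison, and for the 8 with the highest level per kilobase, in part as ranges. Other members are summarized or were named after their values were seen. All 36 members matched GENCODE M21 by symbol, and similar transcripts were found with blastn 2.17.0 (at least 90% identity over 200 bases). Promoter windows are RefSeq's on GRCm38.p6. Protein sequences were not used here.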

Additional observations from a re-analysis of the deposited data

How the results depend on the processing

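The count of members with a mean signal of at least 1, 30, became 19 at a mean of at least 5. For LSK against LK cells, quantile normalization called 7 members and the WT libraries alone 8 (13 with all libraries and common scaling), and leaving out each library gave 10 to 15. Tnfrsf13c, Tnfrsf18, Tnfrsf1b, Tnfsf10 and Traf1 passed under all 20 settings, and Traf6 under 8. For genotype in LK cells DESeq2 called 1 member where limma called 0. In LSK cells, where limma called 0, the replicate block and a mean of at least 5 called Tnfrsf14, and quantile normalization called Tnfrsf12a (1 member each). Tnfrsf14 passed the filter of at least 5 through its WT LSK libraries. DESeq2 called 2 members in LSK cells. With each library left out in turn, 0 members were called in either population and for the interaction, and 0 to 1 for genotype over both populations. Among the members and contrasts followed under every setting, the 1 reversal was Tnfrsf14 in LK cells, -0.015 without WT LK replicate 1, with a range of -0.015 to 0.80 as each library was left out. Of the ligands that were not followed, 4 changed sign between LSK and LK cells under quantile normalization, as given above. Of the values for single members under an alternative, 458 kept their direction and side of the threshold, 45 lost the call and 6 gained it. The cause of these changes was not tested.

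Replicate numbers are shared across groups, but nothing ties them to an animal or a day. Deviations from the group means of libraries with the same number correlated at -0.145 to 0.0510 over genes, so the numbers were not taken as pairs. With the replicate block, 0 members were called in LK cells (64 of all 13949 genes) and 1 in LSK cells (317 of 16817; Tnfrsf14, adjusted p = 0.0449), 0 for the interaction (53 of 15901), 13 between LSK and LK cells (5157 of 15757) and 1 over both populations (220 of 15901; Tnfrsf12a). With the numbers of the Ripk3-/- LK libraries crossed, a choice made after seeing the data, 13 members were called between LSK and LK cells.

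With 2 libraries a group, low members are limited by depth: the floor of 3 reads is 0.186 to 0.311 signal. Sex and genotype differ together, and reads shared by Tnfrsf22 and Tnfrsf23, by other similar transcripts or by overlapping genes cannot be separated.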
